A study of Mus musculus with 12 samples.

Results

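Fezf2, Bcl11b, Ldb2, Tbr1, Sox5, Zfpm2, Foxp2 and Lmo3 encode transcription factors and transcriptional cofactors of deep-layer neurons of the cerebral cortex. They were chosen by gene symbol rather than by a cutoff on a value, though with earlier results of these data known. They make up 8 of the 27179 genes counted, of which 26332 carry a symbol. Their RNA was measured in dorsal cortex of C57BL/6 mouse embryos, in 3 libraries each of Ash2l conditional knockout (cKO) at embryonic day E16.5, wild type (WT) at E16.5, cKO at E14.5 and WT at E14.5. In the cKO embryos a D6-Cre transgene removes Ash2l, a core subunit of the histone methyltransferase complexes of the MLL family, and the study asked what Ash2l does while the cortex forms. D6-Cre is driven by a forebrain enhancer active in the dorsal telencephalon, so meninges, vessels and interneurons born ventrally lie outside the territory it recombines. The labels used here give neither the deleted exons, nor the alleles of the WT embryos, nor whether a library pools embryos.

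Cortical projection neurons are born in sequence, and the earliest ones settle in the subplate and in the deep layers 6 and 5. Fezf2 and its downstream factor Bcl11b specify layer 5 neurons that project to the brainstem and spinal cord, whereas Tbr1 holds layer 6 neurons to a thalamus-projecting identity and represses Fezf2. Sox5 times the emergence of the deep-layer subtypes after migration. These factors repress one another across layers, which is why they are used together as markers of deep-layer identity.

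The letters A, B and C order the libraries of a group by a number in their titles, which the cKO and the WT library of 1 letter and age share. The labels do not say what the number stands for or whether libraries come from separate litters, so the spread behind the p-values below is that between libraries and can include technical differences. Library totals ran from 14318147 to 24719047 counts, and no library held fewer than 152 counts of any of the 8 genes. Levels are given as CPM, a gene's count relative to a library size scaled by the TMM method. The targeted gene Ash2l averaged 58.1 ± 3.30 CPM in cKO and 133 ± 3.57 CPM in WT at E16.5, and 52.8 ± 6.61 CPM in cKO and 129 ± 12.9 CPM in WT at E14.5 (SD, n = 3 each), with every cKO library below every WT library of its age. At E14.5 the 3 cKO libraries carried Xist and the 3 WT libraries carried Y-linked RNA, so sex and genotype cannot be told apart within that age. At E16.5 each genotype held 1 library with Xist and 2 with Y-linked RNA. Emx1, a homeobox gene that defines the dorsal telencephalon, was present in every library, at 22.4 CPM or more. At E16.5 1 library, and at E14.5 3 libraries, stood apart in RNA of other tissues. In WT C of E16.5, 7 choroid plexus markers summed to 630 CPM, against 13.7 to 33.9 CPM in the cKO libraries and 9.03 and 27.9 CPM in the other WT libraries of that age. In WT A of E14.5 the same markers summed to 487 CPM, against 28.7 to 60.8 CPM in the other 5 libraries of that age. In cKO A of E14.5, 8 meningeal fibroblast markers summed to 346 CPM, against 12.6 to 46.9 CPM in the other 5 libraries of that age. Red blood cell markers of cKO A summed to 644 CPM, against 149.5 to 313.9 CPM in those 5 libraries. Its endothelial and pericyte markers summed to 230 CPM, against 102.8 to 166.4 CPM. In WT B of E14.5, 15 GABAergic and ventral telencephalon markers summed to 616 CPM and 12 striatal neuron markers to 90.3 CPM, against at most 319 and 32.2 CPM in the other 5.

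**Figure D1:**
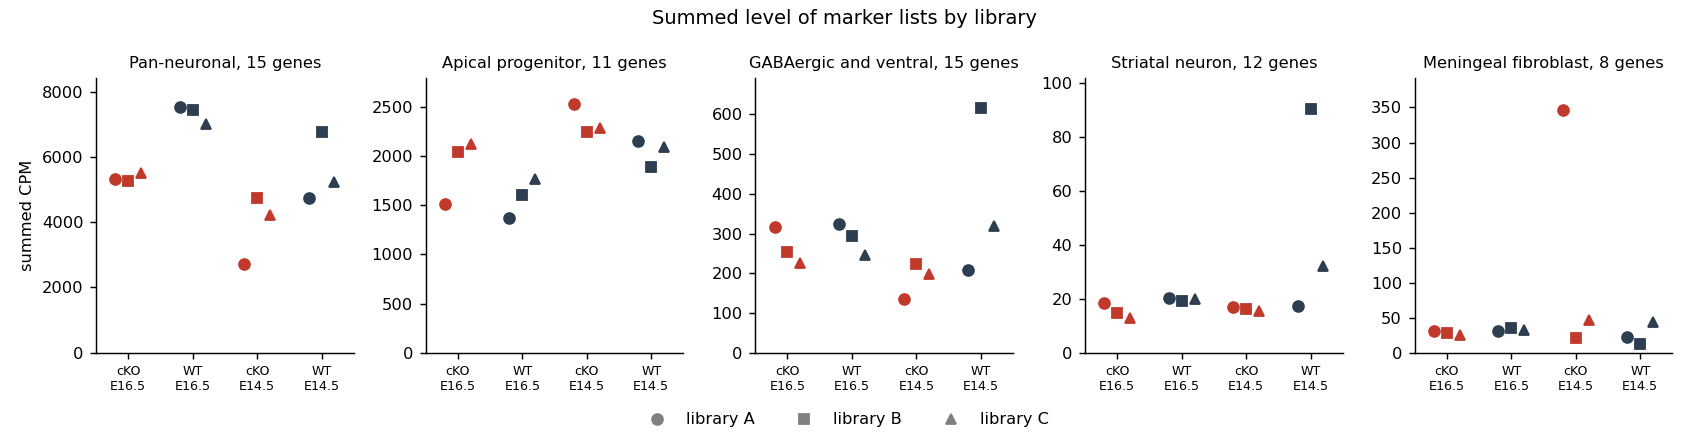
Summed CPM (y axis) of 5 marker lists in each of the 12 libraries, with cKO in red, WT in dark blue and library letters as marker shapes. Pan-neuronal sums lie between 5268 and 5516 CPM in cKO and between 7004 and 7539 CPM in WT at E16.5, and the high points at E14.5 are WT B for the ventral and striatal lists and cKO A for the meningeal list.

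Promoter sequences are shown because Ash2l complexes act at promoters. They are those of Fezf2, the layer 5 selector, of its downstream factor Bcl11b, and of Lmo3. Bcl11b did not pass the main test at either age, and Ldb2, which passed at E16.5, is not in the promoter table used. The sequences are RefSeq's, on build GRCm38.p6, run 5′ to 3′ on the strand of the gene from 250 bases before to 50 bases after its start, and have CG dinucleotides in capitals. The Fezf2 promoter is chr14:12345816-12346115 on the minus strand, that of Bcl11b chr12:108003365-108003664 on the minus strand and that of Lmo3 chr6:138581919-138582218 on the minus strand.
Fezf2: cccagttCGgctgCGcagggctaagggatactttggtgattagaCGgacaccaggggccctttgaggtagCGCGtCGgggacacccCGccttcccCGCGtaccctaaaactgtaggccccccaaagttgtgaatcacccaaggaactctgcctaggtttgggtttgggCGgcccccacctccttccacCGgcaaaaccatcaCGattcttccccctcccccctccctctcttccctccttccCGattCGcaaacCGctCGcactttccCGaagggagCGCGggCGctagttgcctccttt
Bcl11b: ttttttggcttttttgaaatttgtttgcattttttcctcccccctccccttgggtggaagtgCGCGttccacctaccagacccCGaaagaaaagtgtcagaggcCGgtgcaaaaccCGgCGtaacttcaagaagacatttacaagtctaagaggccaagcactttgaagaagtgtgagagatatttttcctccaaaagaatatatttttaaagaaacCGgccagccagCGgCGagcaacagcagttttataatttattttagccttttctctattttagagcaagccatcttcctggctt
Lmo3: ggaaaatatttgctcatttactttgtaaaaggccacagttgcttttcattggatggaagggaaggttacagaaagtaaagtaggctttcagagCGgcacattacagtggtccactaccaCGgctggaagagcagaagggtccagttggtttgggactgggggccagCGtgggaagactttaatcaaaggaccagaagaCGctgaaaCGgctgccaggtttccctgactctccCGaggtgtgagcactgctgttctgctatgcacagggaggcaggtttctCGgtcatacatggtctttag
The Fezf2 window holds 20 CG and is 61.3% G or C, and 26.5% of 32851 RefSeq promoter windows hold at least as many CG. The Bcl11b window holds 9 CG (at least as many in 45.8% of windows) and the Lmo3 window 7 CG, which is also the median of all windows. Of the 8 genes, 5 matched the promoter table. The Tbr1 window holds 7 CG and the Sox5 window 3 CG, and the Sox5 window does not start at the end of the gene as counted in the deposited files. The letters CTTTGAT, a core motif of the TCF/LEF factors of Wnt signalling, were searched on both strands. They occur in 1 of these 5 windows, that of Lmo3, on the opposite strand from base 182 of the window. They occur in 3.73% of all windows, and the match is a description of the sequence only.

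The 8 genes differed widely in level. Per kilobase of exon, Sox5 and Tbr1 were at the top at E16.5. Sox5 averaged 75.0 ± 9.03 CPM per kb in cKO and 82.0 ± 5.16 CPM per kb in WT (SD, n = 3 each), and Tbr1 averaged 74.3 ± 13.2 CPM per kb in cKO and 78.0 ± 7.09 CPM per kb in WT. These neighbours overlapped in both genotypes. Fezf2 and Bcl11b formed the next pair and overlapped as well, with Fezf2 at 44.9 ± 2.57 CPM per kb in cKO and 52.9 ± 1.15 CPM per kb in WT, and Bcl11b at 42.5 ± 9.29 CPM per kb in cKO and 55.0 ± 2.22 CPM per kb in WT. Lmo3 followed at 25.2 ± 3.66 CPM per kb in cKO and 35.5 ± 2.40 CPM per kb in WT, apart from its neighbours. Zfpm2 and Ldb2 stood in a different order in the 2 genotypes at E16.5. In cKO, Zfpm2 was at 19.7 ± 1.10 and Ldb2 at 13.8 ± 2.87 CPM per kb with no overlap, whereas in WT they overlapped at 18.8 ± 0.484 and 20.2 ± 2.09 CPM per kb. Foxp2 was the lowest of the 8 genes in every group, at 4.28 ± 0.527 CPM per kb in cKO and 4.71 ± 0.437 CPM per kb in WT at E16.5. At E14.5 Tbr1 led, at 84.7 ± 19.4 CPM per kb in cKO and 105.9 ± 5.41 CPM per kb in WT, and its range overlapped that of Sox5 in cKO but not in WT.

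**Figure D2:**
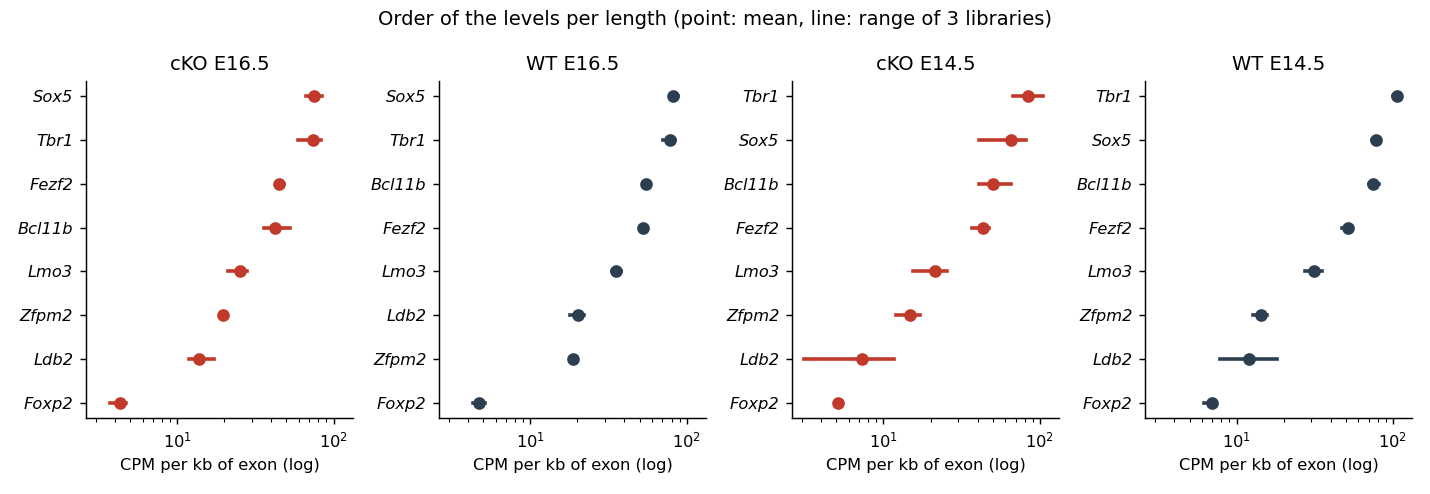
Levels of the 8 genes in CPM per kilobase of exon (x axis, log scale), sorted within each of the 4 groups, with points at the mean and lines over the range of 3 libraries. Sox5 and Tbr1 lead at E16.5, Tbr1 leads at E14.5, and Foxp2 is last in all 4 groups.

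At E16.5, 3 of the 8 genes were lower in cKO than in WT: Lmo3, Ldb2 and Fezf2. Bcl11b was lower in every cKO library without passing the test, and Tbr1, Sox5, Foxp2 and Zfpm2 had log2 fold changes between -0.15 and 0.06, none of which passed. Of all 14865 genes tested by edgeR's quasi-likelihood test, 15.9% passed a Benjamini-Hochberg adjusted p of 0.05, and 9.88% passed as lower. The median log2 fold change was -0.19 over the 8 genes and 0.02 over all genes tested. All 8 genes passed the filter on low counts.

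Fezf2, a zinc finger factor and the selector of layer 5 subcerebral neurons, is Gene ID 54713 and has 5 exons on chromosome 14, minus strand, between 12341892 and 12345865 (mm10). It had 99.4, 110.3 and 101 CPM in cKO A, B and C, against 121, 125 and 119.9 CPM in WT A, B and C. The cKO libraries all lay below the WT libraries, and the WT libraries were nearly equal. This gave a log2 fold change of -0.24 (SE 0.0663, edgeR adjusted p = 0.0446), a level 15.5% below WT. Scaling by library totals ended this call (adjusted p = 0.0802), as did testing without the filter on low counts (adjusted p = 0.0602) and leaving out any 1 of the 6 libraries (adjusted p from 0.0670 to 0.155, log2 fold change from -0.29 to -0.21).

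Bcl11b, a zinc finger factor needed for corticospinal axons to extend and also a marker of striatal neurons, is Gene ID 58208 and has 4 exons on chromosome 12, minus strand, between 107910403 and 108003414. Its levels were 283, 306 and 420.2 CPM in cKO and 425, 426 and 456 CPM in WT. The groups did not overlap, but cKO C came close to the lowest WT library, while the other cKO libraries were well below. This gave a log2 fold change of -0.38 (SE 0.138, edgeR adjusted p = 0.101) and did not pass. It passed with the title number as a block (-0.40, adjusted p = 0.00992) and with cKO C left out (-0.57, adjusted p = 0.00715).

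Ldb2, a cofactor that bridges LIM-domain proteins and is enriched in corticospinal neurons, is Gene ID 16826 and has 9 exons on chromosome 5, minus strand, between 44472133 and 44799707. The cKO libraries had 44.9, 32.4 and 31.2 CPM, against 57.6, 54.3 and 46.9 CPM in WT. Both genotypes spread by more than 10 CPM, with A highest, and the highest cKO library lay just under the lowest WT library. This gave a log2 fold change of -0.55 (SE 0.151, edgeR adjusted p = 0.0433). The call held without cKO A (-0.74, adjusted p = 0.00270) and was lost when any other library was left out (adjusted p up to 0.154) and with scaling by library totals (adjusted p = 0.0524).

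Lmo3, a LIM-only protein that binds partners rather than DNA, is Gene ID 109593 and has 5 exons on chromosome 6, minus strand, between 138364481 and 138581968. It had 44.3, 55.4 and 59.1 CPM in cKO, against 74.4, 79.7 and 69.6 CPM in WT. Every cKO library was more than 10 CPM below the lowest WT library. This gave a log2 fold change of -0.50 (SE 0.114, edgeR adjusted p = 0.0232), a level 29.4% below WT. The call held with scaling by library totals (adjusted p = 0.0251) and without cKO A or cKO C. It was lost without cKO B or any 1 WT library, with adjusted p up to 0.0959.

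The factors of layer 6 and the subplate showed small differences at E16.5. Tbr1, a T-box factor of layer 6 and subplate neurons (Gene ID 21375, chromosome 2, plus strand, 61804453 to 61814114), had 332, 235 and 319 CPM in cKO and 315, 279.9 and 336 CPM in WT. Library B was lowest in both genotypes and the groups overlapped. Its log2 fold change of -0.08 (SE 0.132, edgeR adjusted p = 0.733) became 0.06 without cKO B. Sox5, an SRY-box factor (Gene ID 20678, chromosome 6, minus strand, 143828425 to 144209568), had 537, 491 and 622 CPM in cKO and 571, 589.7 and 644 CPM in WT. Library C was highest in both genotypes, and cKO C lay within the WT range. Its log2 fold change came to -0.14 (SE 0.0972, edgeR adjusted p = 0.379).

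Foxp2, a forkhead factor of layer 6 neurons that striatal neurons also express (Gene ID 114142, chromosome 6, plus strand, 14901349 to 15441977), had 31.4, 26.1 and 33.3 CPM in cKO and 30.3, 33.1 and 36.5 CPM in WT. Only cKO B lay outside the WT range. This gave a log2 fold change of -0.15 (SE 0.118, edgeR adjusted p = 0.439). Zfpm2, a zinc finger cofactor of GATA factors that marks corticothalamic neurons (Gene ID 22762, chromosome 15, plus strand, 40655042 to 41104592), had 104, 93.4 and 96.5 CPM in cKO and 93.7, 90.9 and 95.7 CPM in WT. It was the only one of the 8 genes with a log2 fold change above 0, at 0.06 (SE 0.0672, edgeR adjusted p = 0.570), and the groups overlapped.

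**Figure D3:**
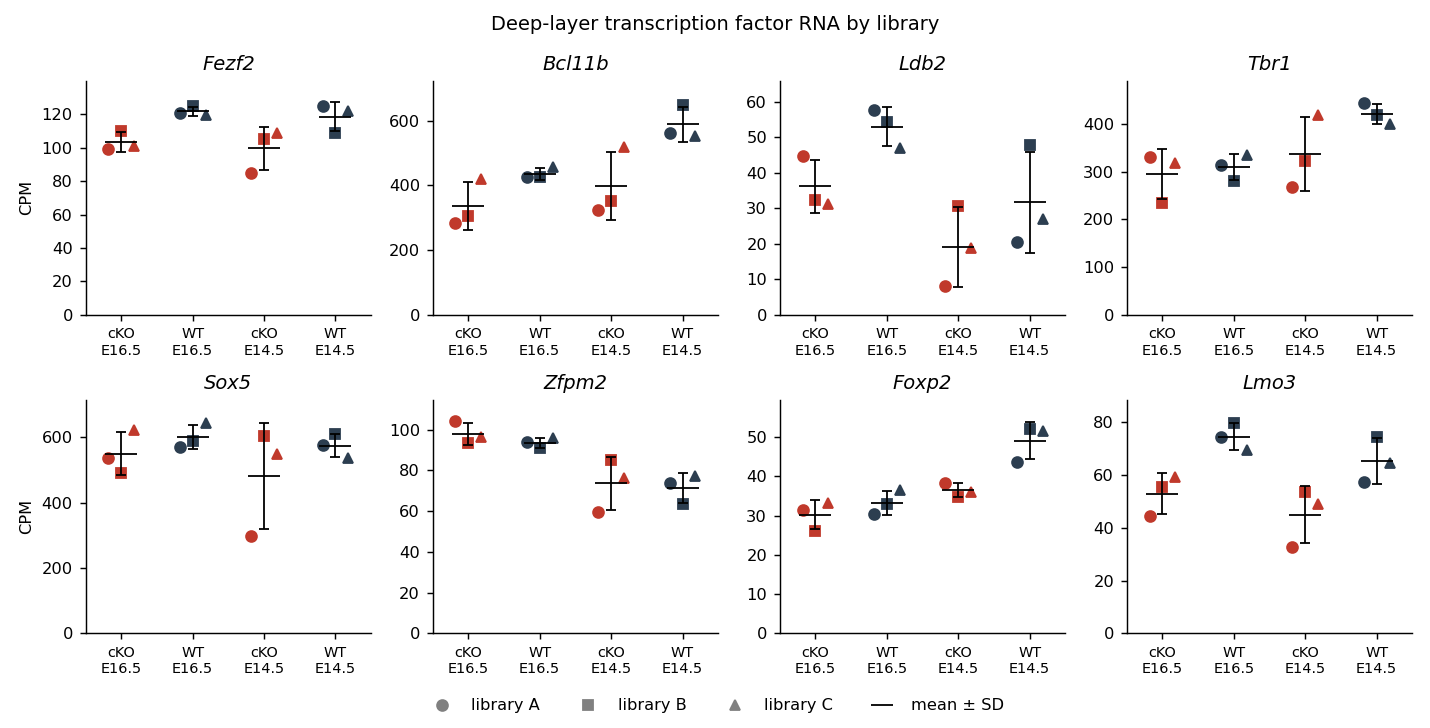
CPM (y axis, from 0) of each of the 8 genes in the 12 libraries, with cKO in red, WT in dark blue, library letters as marker shapes and black marks for the mean ± SD of 3 libraries. At E16.5 the cKO points of Fezf2, Bcl11b, Ldb2 and Lmo3 lie below all WT points, while those of Tbr1, Sox5, Zfpm2 and Foxp2 overlap them.

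At E16.5, 4 of the 8 genes had every cKO library under the lowest WT library, which also held for 18.3% of all genes tested. Log2 fold changes were below 0 for 7 of the 8 genes and for 47.4% of all genes. Because same-numbered E16.5 libraries deviated together, the fit with the title number as a block is given beside these counts. In that fit 4 of the 8 genes passed, Fezf2, Bcl11b, Ldb2 and Lmo3, against 32.2% of all genes, so both counts grew together. DESeq2 called Fezf2, Ldb2 and Lmo3, against 17.1% of all genes with an adjusted p. In the fit of all 12 libraries none of the 8 genes passed at E16.5, against 1882 of 15338 genes. Adjusted p ran from 0.0798 for Lmo3 upward, and the log2 fold changes moved by less than 0.01. Without WT C, the library high in choroid plexus markers, none of the 8 genes passed, against 1640 of 15091 genes. Fezf2 was then at -0.25 (adjusted p = 0.101), Ldb2 at -0.63 (adjusted p = 0.0530) and Lmo3 at -0.54 (adjusted p = 0.0521). In bulk tissue, fewer deep-layer neurons and less of these RNAs per neuron cannot be told apart.

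**Figure D4:**
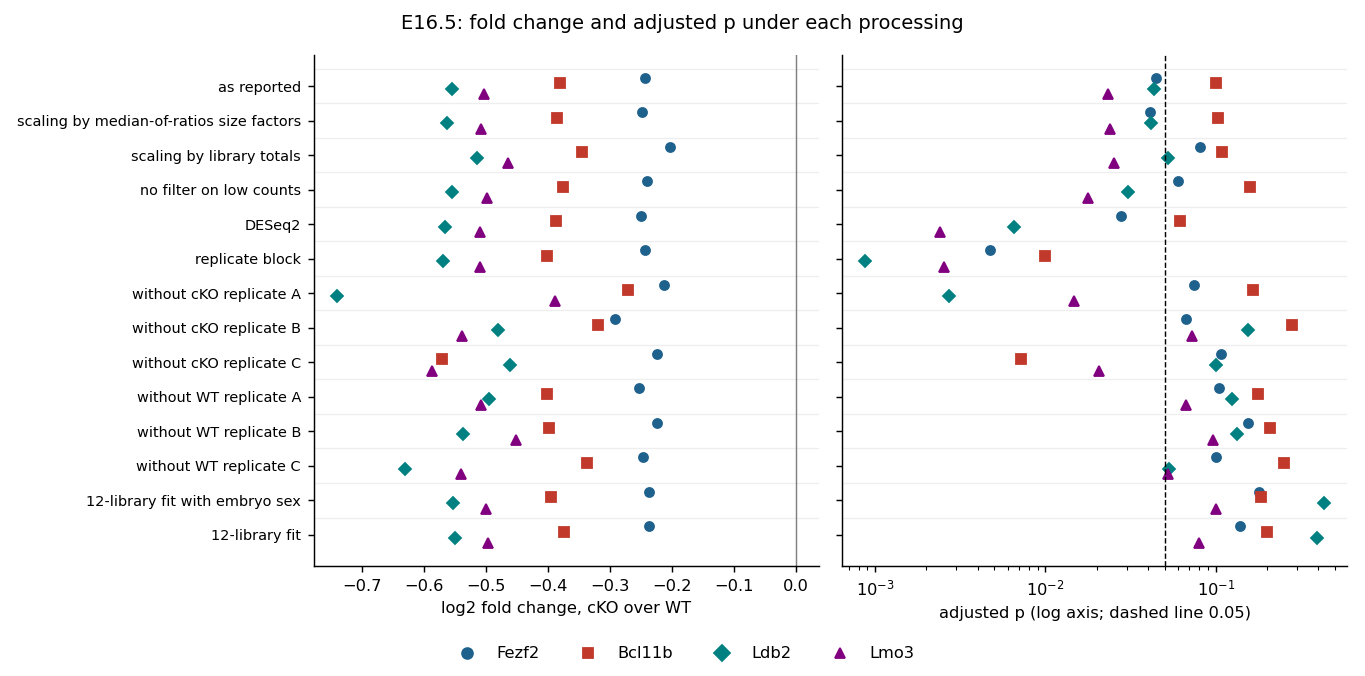
Log2 fold change of cKO over WT at E16.5 (left, x axis) and its adjusted p (right, x axis, log scale, dashed line at 0.05) for Fezf2, Bcl11b, Ldb2 and Lmo3 under each processing, 1 row each. All values on the left lie below 0, whereas the adjusted p of each gene falls on both sides of 0.05.

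Of the lists of other deep-layer genes, the layer 6 list held the most calls at E16.5. Of its 10 layer 6 and corticothalamic markers, 4 fell and 0 rose, beside 9.88% of all genes called lower, with a list median of -0.42 on the log2 scale, against 0.02 over all genes. Syt6, a synaptotagmin, had 12.6, 11.8 and 12.6 CPM in cKO and 35.6, 25.9 and 44.3 CPM in WT (log2 fold change -1.52, edgeR adjusted p = 0.00288). Ppp1r1b, a phosphatase inhibitor of dopamine signalling, had a log2 fold change of -1.42, Tle4, a co-repressor of layer 6 neurons, of -0.57, and Ntsr1, the neurotensin receptor used to mark corticothalamic neurons, of -1.57. Of 14 layer 5 and corticospinal markers, 2 fell and 0 rose (median -0.17), a share near the 9.88% of all genes. These were Etv1, an ETS factor of layer 5, at 11.6 ± 1.18 CPM in cKO and 20.8 ± 2.23 CPM in WT, and S100a10, at 3.42 CPM in cKO and 8.80 CPM in WT (means, n = 3 each). Of 9 subplate markers tested, Nxph3, a neurexin ligand, fell (log2 fold change -0.92) and none rose, again a share near that of all genes.

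Of 8 reported targets of Fezf2 or Tbr1, 3 fell at E16.5 and 0 rose (list median -0.24), beside 9.88% of all genes called lower. Their summed levels overlapped, at 1872 to 2059 CPM in cKO and 1771 to 2193 CPM in WT. Whether their levels follow those of Fezf2 or Tbr1 was not tested. Slc17a7, the vesicular glutamate transporter that Fezf2 activates, averaged 25.3 ± 4.08 CPM in cKO and 41.8 ± 4.37 CPM in WT (SD, n = 3 each, log2 fold change -0.73, edgeR adjusted p = 0.0107). Ephb1, an axon guidance receptor activated by Fezf2, had a log2 fold change of -0.42 (edgeR adjusted p = 0.0141), and Grin2b, a glutamate receptor subunit under Tbr1, one of -0.92 (edgeR adjusted p = 0.0206). Of 20 regulators and partners of the 8 factors, Tle4, counted above with layer 6, and Sox11, a neuronal SRY-box factor, fell and none rose (list median -0.10), a share near the 9.88% of all genes called lower. Sox11 averaged 2964 ± 305 CPM in cKO and 3709 ± 175 CPM in WT.

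Genes of neurons in general fell in the same comparison. Of 15 pan-neuronal markers, 10 fell and 0 rose, with a list median of -0.53. Stmn2, a microtubule regulator of growing axons, had 222, 226 and 193 CPM in cKO and 572, 508.5 and 492 CPM in WT (log2 fold change -1.30, edgeR adjusted p = 0.000819). Ina, a neurofilament protein, and Gap43, a growth cone protein, had log2 fold changes of -0.95 and -0.48. Of 11 apical progenitor markers, 3 rose and 0 fell (median 0.34), namely Hopx, Hes5, a Notch target, and Nes, the progenitor intermediate filament. Of 14 upper-layer and callosal factors, edgeR called Pou3f1 lower (log2 fold change -1.09) and none higher (median -0.32). DESeq2 called 4 of these 14, 11 of the 15 pan-neuronal and 4 of the 11 apical progenitor markers, against 17.1% of all genes. Summed GABAergic and ventral markers were between 226 and 317 CPM in cKO and between 246 and 325 CPM in WT, and summed striatal markers between 12.75 and 18.5 CPM in cKO and between 19.1 and 20.3 CPM in WT, with no marker of either list at 0 in all libraries. Sstr2, a somatostatin receptor, was the 1 gene called among 10 intermediate progenitor markers (log2 fold change -0.72), and Ebf3, a factor of Cajal-Retzius cells, the 1 called among 9 Cajal-Retzius markers (0.45). Choroid plexus markers had a list median of -1.69 over 6 tested genes, and WT C alone had a high sum of them. Neither edgeR nor DESeq2 called any gene of that list or of the meningeal, hippocampal and hem, red blood cell, endothelial and microglia lists at E16.5, and 1 choroid plexus, 1 meningeal and 1 hippocampal marker had an unadjusted p under 0.05. Their part, and that of the pan-neuronal markers, in the lower Fezf2, Ldb2 and Lmo3 was not tested.

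The 8 genes were also set against the mean log2 CPM of the 15 pan-neuronal markers in the same library. At E16.5 that mean was 7.01 ± 0.127 in cKO and 7.69 ± 0.116 in WT (SD, n = 3 each), a difference of -0.68. Relative to it, the log2 difference of cKO minus WT was 0.74 for Zfpm2, 0.59 for Tbr1, 0.54 for Sox5, 0.54 for Foxp2, 0.44 for Fezf2, 0.28 for Bcl11b, 0.17 for Lmo3 and 0.11 for Ldb2. On this relative scale Zfpm2, Tbr1, Sox5, Foxp2 and Fezf2 had every cKO library above every WT library, which makes 5 of the 8 genes, against 71.0% of all genes tested. Fezf2 was thus below WT in CPM and above WT relative to these markers, while Bcl11b, Ldb2 and Lmo3 overlapped WT on the relative scale. An exact two-sided permutation test of 3 against 3 libraries cannot give a p below 0.1, which is what these 5 genes had.

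At E14.5, edgeR's quasi-likelihood test called 0 of the 8 genes at an adjusted p of 0.05, against 2.01% of 14788 genes tested. At an unadjusted p under 0.05 it had 3 of the 8 genes, Foxp2, Bcl11b and Lmo3, against 20.2% of all genes, and DESeq2 called 1 gene, Foxp2, against 7.92% of all genes. The log2 fold changes were below 0 for 7 of the 8 genes and for 46.1% of all genes, with a median of -0.37 over the 8 genes and 0.03 over all genes. No cKO library reached the lowest WT library for Bcl11b, Foxp2 and Lmo3, which makes 3 of the 8 genes against 14.8% of all genes.

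Bcl11b had 324, 353 and 519 CPM in cKO and 563, 649.9 and 553 CPM in WT. As at E16.5, cKO C was close to WT and the other cKO libraries were far below (log2 fold change -0.55, SE 0.182, edgeR adjusted p = 0.157). Lmo3 had 32.7, 53.5 and 48.8 CPM in cKO and 57.3, 74.4 and 64.5 CPM in WT (log2 fold change -0.53, SE 0.187, edgeR adjusted p = 0.177). The groups lay apart, with A lowest in both genotypes. Foxp2 had 38.3, 34.9 and 36.1 CPM in cKO and 43.7, 52.1 and 51.5 CPM in WT. Its cKO libraries were tight, and its log2 fold change came to -0.42 (SE 0.107, edgeR adjusted p = 0.0927). In DESeq2 it passed with an adjusted p of 0.0265 and in the fit of all 12 libraries with 0.0355.

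The other 5 genes overlapped between genotypes at E14.5. Fezf2 had 84.9, 105.2 and 109 CPM in cKO and 125, 109 and 122 CPM in WT (log2 fold change -0.24, SE 0.114, edgeR adjusted p = 0.284), the same log2 fold change as at E16.5 but with cKO C level with WT B. Tbr1 had 267, 323 and 419.8 CPM in cKO and 444, 419 and 401 CPM in WT (log2 fold change -0.31, edgeR adjusted p = 0.318). Ldb2 had 8.18, 30.6 and 18.8 CPM in cKO and 20.6, 47.7 and 26.9 CPM in WT (log2 fold change -0.73, SE 0.474, edgeR adjusted p = 0.437). In both genotypes A was lowest and B highest, and Ldb2 varied more than any of the other 7 genes relative to its level. Sox5 had 298, 603 and 548 CPM in cKO and 578, 609 and 537 CPM in WT (log2 fold change -0.25, edgeR adjusted p = 0.600), so cKO A alone lay below the WT range. Zfpm2 had 59.6, 85.0 and 76.3 CPM in cKO and 73.6, 63.3 and 77.3 CPM in WT (log2 fold change 0.05, edgeR adjusted p = 0.862), and its sign turned without cKO B and without WT B.

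Several of these values changed when cKO A and WT B were left out. Library cKO A was high in meningeal, red blood cell and endothelial markers, and WT B in ventral and striatal markers. Without both, Ldb2 and Sox5 each had a log2 fold change of 0.04. Lmo3 was at -0.26, Bcl11b at -0.36 and Foxp2 at -0.43 in that fit, and none of the 8 genes passed, against 621 of 14973 genes. Without WT A, the library high in choroid plexus markers, the log2 fold changes ran from -0.96 for Ldb2 to 0.07 for Zfpm2. None of the 8 genes passed there, against 66 of 14935 genes. cKO A also had the lowest pan-neuronal sum of that age, 2706 CPM, and WT B the highest, 6761 CPM, against 4220 to 5221 CPM in the other 4 libraries. Relative to the mean of the pan-neuronal markers, the log2 differences of cKO minus WT at E14.5 ran from -0.03 for Ldb2 to 0.83 for Zfpm2. Sox5, Lmo3 and Zfpm2 had every cKO library above every WT library on that scale, 3 of the 8 genes, against 57.0% of all genes. With embryo sex as a term in the fit of all 12 libraries, no gene of the 8 passed at E14.5, against 128 of 15338 genes. Bcl11b was at -0.80, Lmo3 at -0.66 and Foxp2 at -0.44 in that fit. Each E14.5 group held 1 sex, so the E16.5 libraries alone set its sex term.

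Among the lists at E14.5, layer 5 and corticospinal markers had 1 of 14 members called, Cdh22, a cadherin, which fell to 0.994 ± 0.120 CPM in cKO, against 3.14 ± 0.425 CPM in WT (SD, n = 3 each, edgeR adjusted p = 0.0355). None of 10 layer 6, 9 subplate, 14 upper-layer or 8 target genes, nor of the 20 regulators, was called by edgeR at that age. At an unadjusted p under 0.05 there were 7 of 14 layer 5, 4 of 10 layer 6, 1 of 9 subplate and 11 of 15 pan-neuronal markers. There were also 2 of 14 upper-layer factors, 2 of 8 target genes and 2 of 20 regulators, against 20.2% of all genes. DESeq2 called 3 layer 5, 2 layer 6, 7 pan-neuronal, 2 upper-layer and 2 target genes, against 7.92% of all genes. The list medians were -0.40 for layer 6, -0.29 for layer 5, -0.32 for upper-layer factors and -0.60 for pan-neuronal markers, of which Nefm, a neurofilament protein, was called (log2 fold change -1.74, edgeR adjusted p = 0.0407). Among progenitor markers, Hopx was called higher (log2 fold change 0.97, edgeR adjusted p = 0.0355) in an apical list with a median of 0.27, and Sstr2 lower (-0.70, edgeR adjusted p = 0.0410) in the intermediate list. Meningeal markers had a median of 2.17 over 7 tested genes and choroid plexus markers one of -1.60 over 6, with 0 called by edgeR or DESeq2 and 2 of each list at an unadjusted p under 0.05. Striatal neuron markers had a median of -1.56 over 9 tested genes and ventral markers one of -1.28 over 13. No gene of these lists was called by edgeR, 4 and 6 of them had an unadjusted p under 0.05, and DESeq2 called 2 of each list. Their part in the values of Bcl11b and Foxp2, which striatal neurons share, was not tested beyond the fit without WT B and cKO A.

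**Figure D5:**
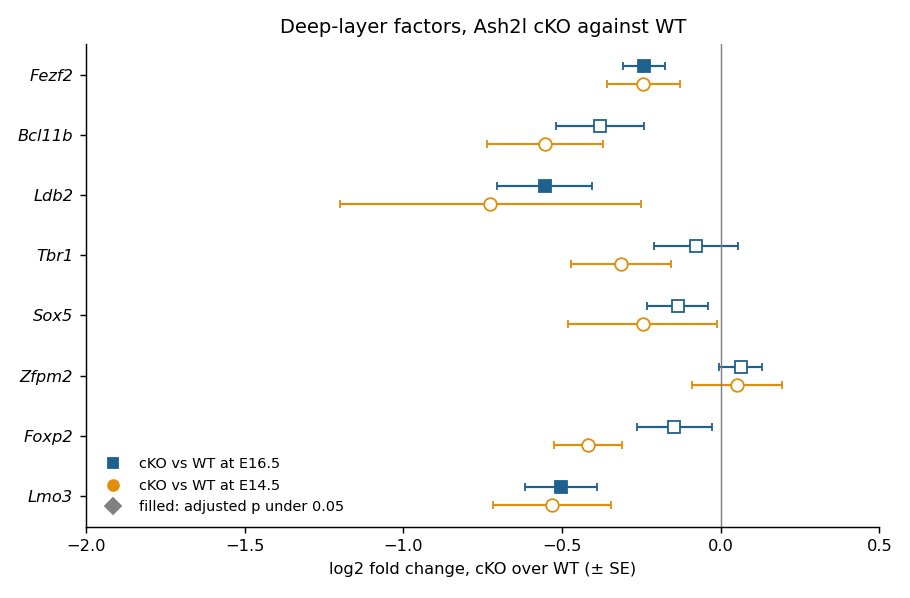
Log2 fold change of cKO over WT (x axis) with its SE for each of the 8 genes at E16.5 (blue squares) and E14.5 (orange circles), filled where the adjusted p is under 0.05. Lmo3, Ldb2 and Fezf2 at E16.5 are the filled points, and only Zfpm2 lies above 0, at both ages.

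Whether the effect of the knockout differed between the ages was tested with an interaction term over all 12 libraries. The edgeR test called 0 of the 8 genes and 0 of 15338 genes (0.0%), DESeq2 likewise called 0, and at an unadjusted p under 0.05 there were 0 of the 8 genes and 2.07% of all genes. The differences of the cKO effect, E16.5 minus E14.5 on the log2 scale, ran from 0.02 for Fezf2 to 0.29 for Foxp2 (SE 0.137 and 0.159). For Fezf2 and Zfpm2 the sign turned under scaling by median-of-ratios size factors, without the low-count filter and in DESeq2. The SE of Ldb2 was 0.548, so a difference between the ages of that size was not detectable for it at this spread. Lmo3, Ldb2 and Fezf2 passed the main test at E16.5 and not at E14.5. This is therefore not shown to be a difference between the ages. With the title number as a block, edgeR called Ldb2 and Lmo3 at E14.5 as well (adjusted p = 0.0236 and 0.0246). In that fit 1279 of 14788 genes passed.

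With age, the 8 genes moved in different directions in WT cortex. Foxp2 passed the test, at 33.3 ± 3.09 CPM at E16.5 against 49.1 ± 4.71 CPM at E14.5 (SD, n = 3 each, log2 fold change -0.56, SE 0.112, edgeR adjusted p = 0.0372). It was 1 of the 8 genes called, against 2.15% of 15338 genes in either direction and 1.39% as lower. Over all genes 117 were higher and 213 lower at E16.5, and scaling by median-of-ratios size factors gave 121 higher and 142 lower. Its E16.5 libraries all lay below its E14.5 libraries. The call was lost with embryo sex as a term and in 7 of the 12 fits that left out 1 library, those without WT A, B or C of E16.5, WT A or C of E14.5, cKO B of E16.5 or cKO C of E14.5 (highest adjusted p = 0.173). These fits share 1 estimate of spread over all 12 libraries, so a cKO library can also decide a WT call.

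The other 7 genes did not pass in WT. Bcl11b averaged 436 ± 17.6 CPM at E16.5 against 589 ± 53.1 CPM at E14.5 (log2 fold change -0.43, edgeR adjusted p = 0.143), and Tbr1 310.1 ± 28.2 CPM at E16.5 against 421 ± 21.5 CPM at E14.5 (-0.44, adjusted p = 0.113). For both, every E16.5 library was below every E14.5 library. Zfpm2 averaged 93.4 ± 2.41 CPM at E16.5 against 71.4 ± 7.29 CPM at E14.5 (log2 fold change 0.39, edgeR adjusted p = 0.0774), again without overlap, and DESeq2 called it. Ldb2 averaged 53.0 ± 5.49 CPM at E16.5 against 31.7 ± 14.2 CPM at E14.5 (0.74, edgeR adjusted p = 0.227), with WT B of E14.5 inside the E16.5 range. Lmo3, Sox5 and Fezf2 had log2 fold changes of 0.19, 0.06 and 0.04. How many of all genes lay apart between the ages was not counted, in WT or in cKO. At an unadjusted p under 0.05, edgeR had 4 of the 8 genes and 4252 of 15338 genes in WT. Among the other deep-layer genes in WT, Crym, a thyroid hormone-binding protein of corticospinal neurons, rose (log2 fold change 1.68), as did Tle4 (0.77) and Ephb1 (0.74), while the subplate marker Nxph4 fell (-0.73).

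In cKO cortex edgeR called 0 of the 8 genes between the ages, against 7.62% of 15338 genes, and 3 of the 8 genes had an unadjusted p under 0.05, against 33.8% of all genes. DESeq2 called Zfpm2, and so did scaling by library totals. Over all genes 599 were higher and 569 lower at E16.5, and scaling by library totals gave 1050 higher and 619 lower. Zfpm2 averaged 97.98 ± 5.47 CPM at E16.5 against 73.6 ± 12.9 CPM at E14.5 (log2 fold change 0.41, edgeR adjusted p = 0.0515), with every E16.5 library above every E14.5 library. Ldb2 averaged 36.2 ± 7.55 CPM at E16.5 against 19.2 ± 11.2 CPM at E14.5 (0.92, adjusted p = 0.125), and Foxp2 30.3 ± 3.73 CPM at E16.5 against 36.4 ± 1.76 CPM at E14.5 (-0.27, adjusted p = 0.120). Bcl11b and Tbr1 had log2 fold changes of -0.25 and -0.19, and Lmo3, Sox5 and Fezf2 of 0.23, 0.19 and 0.06. The WT and cKO age courses use different libraries but the same estimate of spread. Sex also shifted with age. In cKO, 3 of 3 libraries carried Xist at E14.5 and 1 of 3 at E16.5, and in WT 0 of 3 and 1 of 3.

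For each of the 8 genes the genes with the most alike profile were sought, by the root mean square difference between centred log2 CPM profiles over the 12 libraries, among 12535 genes. None of the 8 was among the 3 nearest genes of another. Ldb2 lay nearest to Grik3, a kainate receptor subunit of the layer 6 list, at a difference of 0.135 log2 units, against a median of 0.797 to all genes, then to Dnm3 (0.146) and Nsg2 (0.149). Bcl11b lay nearest to Fam53b (0.159), H2afy2 (0.172) and Rbfox3 (0.172), the last being the neuronal nuclear marker NeuN, against a median of 0.436. Lmo3 lay nearest to Draxin, a secreted axon guidance protein (0.110), Zfp57 (0.111) and Grina (0.116), against a median of 0.425. Fezf2, whose own spread over the libraries was small, lay nearest to Gtf2f2 (0.0578), Phf21a (0.0642) and Srgap3 (0.0667), against a median of 0.287. The nearest genes of Tbr1 were Phf21b (0.140), Zfhx2 (0.157) and Plekho1 (0.157), against a median of 0.360. Plekho1 was also among those of Foxp2, at 0.143, with Prokr1 (0.137) and Zfp37 (0.145). Sox5 lay nearest to Ppm1e (0.0915), Osbpl8 (0.119) and Ptchd2 (0.123), and Zfpm2 to Atp6v1c1, a proton pump subunit (0.0908), Tiprl (0.0909) and Srpk2, a splicing kinase (0.0926). These libraries share depth, age, tissue content and genotype, so likeness of profile is a description.

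The authors' deposited table gives log2 ratios of WT over knockout, so its positive values mean higher in WT. At E16.5 Fezf2 had 0.24 (adjusted p = 0.0277), Ldb2 0.52 (adjusted p = 0.00654) and Lmo3 0.48 (adjusted p = 0.00242) in the authors' deposited table, and Bcl11b had 0.36 (adjusted p = 0.0624). At E14.5 the authors' deposited table has Foxp2 at 0.4 (adjusted p = 0.0264), Bcl11b at 0.5 (adjusted p = 0.0565) and Lmo3 at 0.47 (adjusted p = 0.0945).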

How the data were processed

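RNA of dorsal cortex, isolated with TRIzol, went into Illumina libraries, per the labels. The authors used STAR 2.5.2b for alignment to mm10, per the submitters' processing notes, and counted fragments over RefSeq exons on the reverse strand, using featureCounts 1.5.2, per the file headers. Deposited counts are raw, and the exon lengths behind values per kilobase are those per the file headers. Because strand was used, antisense genes were counted apart, and in the deposited annotation no exon of another gene overlaps those of the 8 genes. The authors' deposited tables hold log2 ratios of WT over knockout with their p-values. Those come from DESeq2 1.14.1, per the notes of the submitters. The design formula behind them is not given in the sources used here, and 16 columns of normalised values were not used.

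Genotype and age in the labels gave the groups. The count test was edgeR's quasi-likelihood F test (edgeR 4.0.16, limma 3.58.1, R 4.3.3) with TMM scaling, filterByExpr on the groups and a robust fit. P-values were adjusted by Benjamini-Hochberg over every gene tested, and 0.05 was the threshold. The cKO against WT tests used the 6 libraries of 1 age, and all comparisons between ages used 1 fit of 12 libraries with 4 groups. An SE is the absolute log2 fold change over the root of F. Log2 CPM values have a prior count of 2. Alternatives were DESeq2 1.42.0, other scalings, no filter, a block, embryo sex (read from Xist and Y-linked genes) and libraries left out. The count test was tested on simulated data. Libraries of 1 group differed beyond sampling noise (chi-square per degree of freedom from 9.06 to 48.3), so none was treated as a copy.

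Each title number is shared by 1 cKO and 1 WT library of an age. Deviations from the group means correlated within all 3 same-numbered pairs at E16.5 (r of 0.281, 0.210 and 0.112, across 14865 genes). Between differently numbered libraries of that age, cKO B and WT C correlated at 0.107, and the others ran from -0.267 to -0.0045. The main E16.5 test stayed unpaired, and the fit with the number as a block is given beside it. At E14.5 the same-numbered pairs gave r of 0.272, 0.304 and -0.0022, and the block fit of that age is kept as an alternative.

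The 8 genes, the gene lists, the tests and the alternatives were chosen with earlier results of these data known. All 8 genes are named in every comparison. Of each list the text names up to 3 called genes, those with the smallest p, and for each of the 8 genes the most alike profiles among genes averaging 1 CPM or more, leaving out symbols of clones, predicted genes and pseudogenes. Ntsr1, the fourth layer 6 marker called at E16.5, was named after its value was seen.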

Additional observations from a re-analysis of the deposited data

How the results depend on the processing

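The direction of the E16.5 change of Fezf2, Bcl11b, Ldb2 and Lmo3 was lower in cKO under each of 13 alternatives, while none of them was called under every one. At E16.5 the count of the 8 genes called was 1 with scaling by library totals and 0 in the fit of all 12 libraries, with or without embryo sex, and ran from 0 to 2 when 1 library was left out. Over all genes that comparison had 4790 calls with the replicate block, 1882 in the 12-library fit and 1569 with sex as a term. With 1 library left out, it had from 987 (without WT B) to 2855 (without cKO A). The block changed no call of the 8 genes at E16.5 other than that of Bcl11b. Scaling by library totals gave 1163 higher and 1328 lower there, against 889 and 1469, and a median log2 fold change over all genes of 0.06, against 0.02. At E14.5 the count was 1 of the 8 genes with DESeq2 and in the 12-library fit (Foxp2), 2 with the replicate block (Ldb2 and Lmo3), and 0 with any 1 library left out. Over all genes it was 1187 with DESeq2, 1279 with the replicate block, 1336 in the 12-library fit, 128 with sex, 621 without WT B and cKO A together, and from 5 to 3.5e+02 (rounded) with 1 library left out, the lowest count being without cKO C and without WT C. Without WT B and cKO A together Sox5 turned to 0.041 and Ldb2 to 0.038. With 1 library left out, Zfpm2 at E14.5 ran from -0.066 to 0.17 and Tbr1 at E16.5 from -0.17 to 0.062.

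The difference between ages turned sign for Fezf2 with median-of-ratios size factors (-0.015), no filter (-0.028), DESeq2 (-0.016) and sex (-0.019), and for Zfpm2 with median-of-ratios size factors (-0.0062), no filter (-0.018) and DESeq2 (-0.0072). With 1 library left out it ran from -0.10 to 0.059 for Fezf2, -0.0049 to 0.40 for Bcl11b, -0.14 to 0.28 for Sox5, -0.26 to 0.64 for Ldb2, -0.16 to 0.15 for Lmo3, -0.12 to 0.11 for Zfpm2 and -0.012 to 0.16 for Ash2l. In the correlation check behind the replicate block, the E14.5 pairs gave r of 0.272, 0.304 and -0.0022 across genes, and the block for the difference between ages called 1 gene of all genes. In the WT age comparison DESeq2 called 2 of the 8 genes and 1967 of all genes, and the fit with sex 0 and 10. With 1 library left out these counts ran from 0 to 2 and from 1 (without WT C of E14.5 or WT A or B of E16.5) to 2216 (without WT B of E14.5), Fezf2 from -0.011 to 0.078 and Ash2l from -0.0089 to 0.14. In the cKO age comparison scaling by library totals and DESeq2 each called 1 of the 8 genes, and all genes called were 536 with no filter, 3126 with DESeq2 and 5 with sex. With 1 library left out the counts ran from 0 to 2 and from 37 (without cKO B of E16.5) to 3679 (without cKO B of E14.5), Fezf2 from -0.054 to 0.11 and Sox5 from -0.071 to 0.36. The causes of these shifts were not tested. The age comparisons within a genotype allow no replicate block, because each number belongs to 1 age. With 3 libraries a group, the calls at E16.5 lie close to the threshold.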
